A study of Rattus norvegicus with 2 samples.

Results

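NF-kB is a family of dimeric transcription factors that switch on inflammatory and survival genes. The genes described here are its 5 subunits (Nfkb1, Nfkb2, Rel, Rela and Relb) and 5 of the inhibitory or feedback genes that act on it (Nfkbia, Nfkbiz, Bcl3, Tnfaip3 and Birc3). Members were found by name, as every probe other than a control whose gene name in the array files was 1 of these 10 symbols. This gave 11 probes for 9 genes, out of 45598 probes and 21096 genes screened on the arrays. Rel had no probe under its own name, and it is given below from a probe that the files name only in its description. A second probe for Relb was found in the same way.

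RNA came from cervical lymph nodes, which drain the head and neck, of male Sprague-Dawley rats aged 10 to 12 weeks. A single array was made from the C group (controls) and a single array from the RS group (restraint stress). The stressed rats were tied to a board on their backs, and all rats were then anesthetized with halothane and killed with pentobarbital. The labels give no restraint time, although the microarray comparison of the study concerned the shortest of its restraint periods. The sources used here do not state whether an array held RNA of 1 rat or a pool, so that the spread between rats is unknown. With 1 array per group, differences have no replicate check, and no test between the groups was run.

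In a resting cell, inhibitory proteins of the I-kappaB family hold NF-kB dimers in the cytoplasm. Signals from Toll-like, interleukin-1 or tumor necrosis factor receptors activate the I-kappaB kinase complex, which marks I-kappaB for destruction in the canonical pathway, while a slower noncanonical route processes the p100 protein and releases dimers with RelB. NF-kB then induces several of its own inhibitors, which form feedback loops. In lymph nodes, the pathway is known for lymphocyte activation and for the organization of the tissue by stromal cells.

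NF-kB dimers bind short DNA motifs called kappaB sites, and many feedback genes carry them close to their start. The promoters of Bcl3 and Nfkbiz are shown because these were the only 2 of the 9 measured genes past 2-fold, and those of Nfkbia and Tnfaip3 because they are the classic feedback inhibitors and were not. Each window runs from 250 bases before to 50 bases after the annotated start, 5′ to 3′ on the strand of the gene, from RefSeq on the GRCr8 assembly, and capitals mark matches to the kappaB consensus on either strand.
Bcl3, chr1:88613506-88613805, minus strand: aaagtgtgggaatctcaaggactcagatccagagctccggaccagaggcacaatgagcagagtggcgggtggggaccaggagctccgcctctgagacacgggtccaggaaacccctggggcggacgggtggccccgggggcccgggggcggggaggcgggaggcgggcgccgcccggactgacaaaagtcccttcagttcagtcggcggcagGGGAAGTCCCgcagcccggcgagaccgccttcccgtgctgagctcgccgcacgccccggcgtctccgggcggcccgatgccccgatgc
Nfkbiz, chr11:58251471-58251770, plus strand: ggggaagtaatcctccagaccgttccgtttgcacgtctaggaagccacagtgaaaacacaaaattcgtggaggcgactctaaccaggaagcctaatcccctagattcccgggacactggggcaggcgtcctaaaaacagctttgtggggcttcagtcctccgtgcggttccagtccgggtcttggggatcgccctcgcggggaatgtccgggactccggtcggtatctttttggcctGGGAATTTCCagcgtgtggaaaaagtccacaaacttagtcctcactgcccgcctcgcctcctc
Nfkbia, chr6:78597023-78597322, minus strand: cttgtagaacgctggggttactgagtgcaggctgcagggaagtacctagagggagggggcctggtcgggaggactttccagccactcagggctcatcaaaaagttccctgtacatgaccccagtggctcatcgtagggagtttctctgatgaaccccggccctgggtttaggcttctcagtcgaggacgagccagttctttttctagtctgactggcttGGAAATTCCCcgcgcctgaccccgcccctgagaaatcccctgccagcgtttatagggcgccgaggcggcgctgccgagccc
Tnfaip3, chr1:15543930-15544229, minus strand: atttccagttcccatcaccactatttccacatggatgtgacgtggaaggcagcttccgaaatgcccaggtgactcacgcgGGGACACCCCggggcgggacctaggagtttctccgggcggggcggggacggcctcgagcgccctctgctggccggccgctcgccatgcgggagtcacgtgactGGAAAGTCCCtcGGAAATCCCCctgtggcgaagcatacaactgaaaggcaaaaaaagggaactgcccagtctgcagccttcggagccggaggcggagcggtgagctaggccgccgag

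Windows were found for 8 of the 10 genes, all but Relb and Birc3. A match to the consensus, which has 10 letters, was present in 7 of the 8 windows, whereas 7.51% of 33469 rat promoter windows of the same length held 1. Bcl3 had GGGAAGTCCC 38 bases before the start, which reads as a match on both strands. Nfkbiz had GGGAATTTCC 13 bases before the start, and the same letters lay 3 bases past the start of Nfkb1. Nfkbia had GGAAATTCCC, a match on the opposite strand, 31 bases before the start, and Nfkb2 had GGGACTTTCC 20 bases before it. Tnfaip3 held 3 matches, at 170, 67 and 55 bases before the start, and Rel held 4, in 2 overlapping pairs. At least 2 matches were found in 1.13% of all windows. Rela was the gene without a match, which says only that these letters are not in its window. A looser form, GGGNNNNNCC on either strand, which overlaps the consensus, was in all 8 windows and in 47.3% of all promoters.

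**Figure D1:**
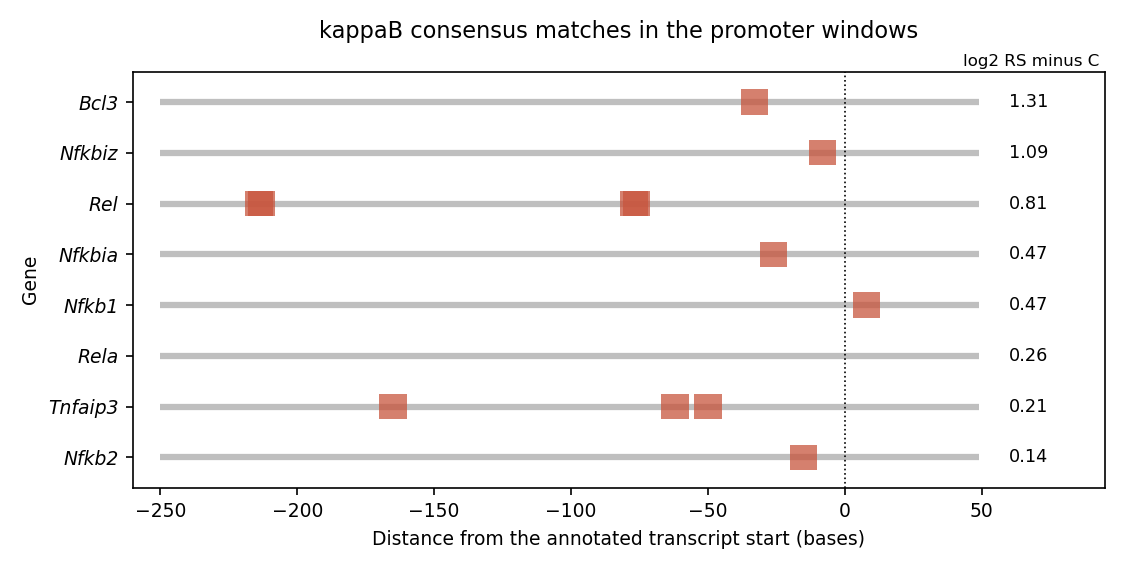
Matches to the kappaB consensus (red boxes) along the promoter windows (gray lines) of 8 NF-kB genes, by distance in bases from the annotated transcript start (dotted line), with the log2 difference between the RS and C arrays of each gene at the right. Genes are ordered by that difference, Rel being given from the probe named in its description. Bcl3, at 1.31, and Nfkb2, at 0.14, each held 1 match, and Tnfaip3, at 0.21, held 3.

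Matches were thus present in windows of genes at both ends of the order. The match is a description of the sequence, and binding was not measured in these data.

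Across the 9 measured genes, Bcl3 and Nfkbiz were at least 2-fold higher on the RS array than on the C array, none was lower by 2-fold, and the other 7 lay between these limits. Of all 21096 screened genes, 3.46% were higher by 2-fold or more and 4.28% were lower. Among the 13366 genes at least as bright as Nfkbiz, the dimmest of the 9, 2.25% were higher by 2-fold or more. Of the 9 genes, 8 were above 0 on the log2 scale and 1, Relb, was below, and 52.1% of all screened genes were above 0. The median log2 difference of the 9 was 0.41, with a range of -0.13 to 1.31, beside 0.016 over all screened genes.

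All 11 probes were well above background on both arrays, each had a single spot per array, and none of the spots was saturated or flagged as an outlier. Intensities below are background-subtracted fluorescence values of the scanner, and log2 differences (RS minus C) are taken after subtracting the 75th percentile of each array, which corresponded to intensities of 189 (C) and 176 (RS). The error of a log2 difference combines the spot errors of both arrays reported by the scanner software, and an interval is the 95% interval that this error gives under a normal distribution. It covers the spot measurement only. For a probe with several spots the spot errors are combined as the error of a mean. A smaller error below can therefore reflect more spots rather than a better measurement. For probes with at least 9 spots in the brightness range of these genes, the SD between spots of an array had a median of 0.065 log2 units on the C array (459 probes) and 0.062 on the RS array (666 probes), which is below the reported errors. Levels of different probes are not compared, since probes bind with different efficiency.

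**Figure D2:**
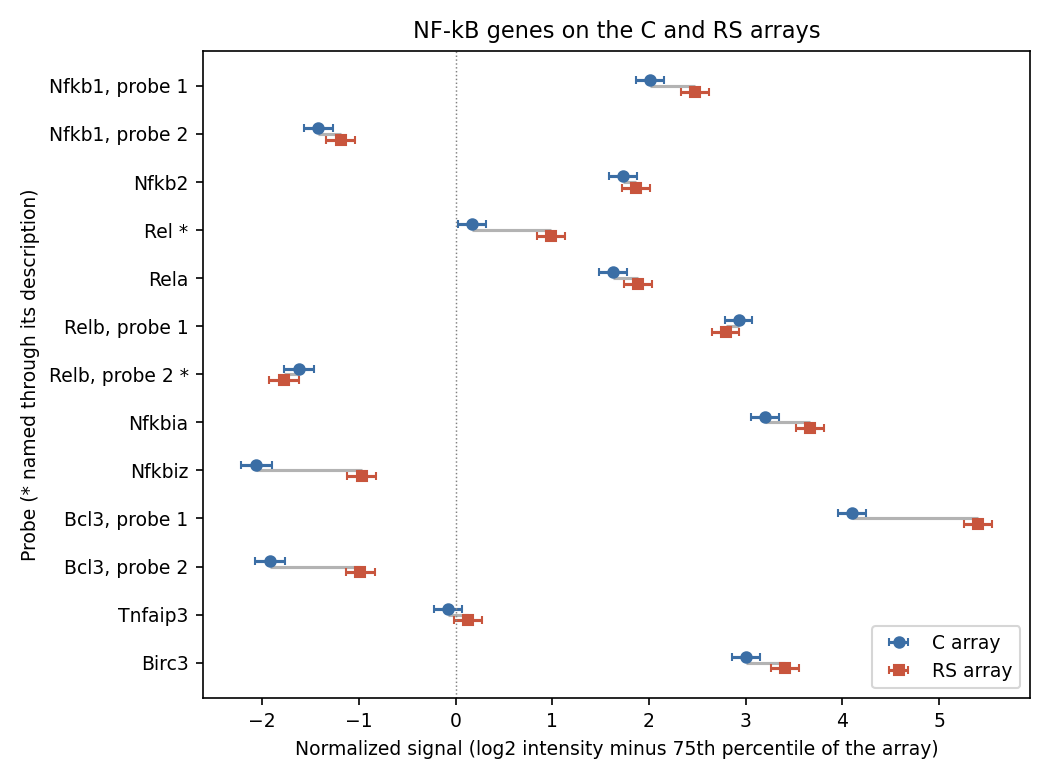
Normalized signal (log2 intensity less its array's 75th percentile) of each probe on the C array (blue circles) and the RS array (red squares), with bars for the spot error of the scanner and gray lines joining both values. An asterisk marks a probe named only through its description. Both Bcl3 probes, Nfkbiz and Rel show the widest gaps, and both Relb probes lie slightly lower on the RS array.

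Nfkb1 encodes p105, the precursor of the p50 subunit, which lacks an activation domain of its own. Its brighter probe (chr2:233091704-233091763, minus strand, in the rn4 coordinates of the files) measured 760 ± 76.0 (spot error) on the C array and 980 ± 98.0 on the RS array. This was a 1.38-fold difference, 0.47 ± 0.20 on the log2 scale (interval 0.066 to 0.87). Its dimmer probe (chr2:233100929-233107175), whose 60 bases span 6247 bases of the genome and therefore cross at least 1 intron, measured 70.6 on C and 77.5 on RS, a log2 difference of 0.23 ± 0.21. The 2 probes differed by 0.23 with an error of 0.29, within the spot error.

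Rela encodes p65, the main activating subunit of the canonical pathway, which is controlled chiefly by its release from I-kappaB. It measured 584 on C and 654 on RS (chr1:208272360-208272419, plus strand), a log2 difference of 0.26 ± 0.20 with an interval of -0.14 to 0.66. The values on the arrays were therefore not separated beyond the spot error.

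Rel encodes c-Rel, a subunit prominent in lymphocytes. Its probe (chr14:104645730-104645789, minus strand) stands outside the rule, carries a transcript accession as its gene name, and was chosen after its values were seen. The probe is shown because it is the only source here for Rel and the name rule misses it.
Rel probe: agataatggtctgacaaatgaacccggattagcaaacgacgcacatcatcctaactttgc
It measured 212 ± 21.3 on the C array and 349 ± 34.9 on the RS array, a 1.76-fold difference of 0.81 ± 0.20 on the log2 scale (interval 0.41 to 1.22). RS was thus higher than C beyond the spot error and under 2-fold. With the probes found by description, the median of the then 10 genes was 0.44 and the number past 2-fold stayed at 2.

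The noncanonical subunits showed the smallest differences. Nfkb2, which encodes the p100 precursor of p52, measured 627 on the C array and 644 on the RS array (chr1:251526647-251526839, plus strand, crossing an intron), a log2 difference of 0.14 ± 0.20. Relb, the usual partner of p52, measured 1436 on C and 1222 on RS (chr1_random, 1468359 to 1468418, a contig without a fixed place on the chromosome), a log2 difference of -0.13 ± 0.20 and a ratio of 0.911. Its probe found by description gave 61.4 on C and 51.5 on RS, a log2 difference of -0.16 ± 0.22. The 2 Relb probes differed by 0.021, and neither separated the arrays beyond the spot error.

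Among the inhibitors, Nfkbia encodes I-kappaB alpha, the inhibitor that NF-kB resynthesizes fastest after activation. It measured 1736 ± 174 on C and 2241 ± 224 on RS (chr6:75730438-75730497, minus strand). The difference was 1.38-fold, 0.47 ± 0.20 on the log2 scale (interval 0.068 to 0.87), higher on RS beyond the spot error. Of all screened genes, 11.0% had a difference as high or higher.

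Bcl3 encodes a nuclear I-kappaB protein that binds p50 and p52 dimers on DNA and changes their activity. Its brighter probe (chr1:79122820-79122879, minus strand) measured 3234 ± 323 on the C array and 7472 ± 747 on the RS array. This 2.47-fold difference, 1.31 ± 0.20 on the log2 scale (interval 0.91 to 1.71), was the highest of the 9 genes, and 2.12% of all screened genes had one as high or higher. The second probe lies upstream in the transcript (chr1:79125464-79125707), and its 60 bases span 244 genomic bases and so cross an intron. It is printed because it measures Bcl3 at another place in the transcript, across a splice junction.
Bcl3 second probe: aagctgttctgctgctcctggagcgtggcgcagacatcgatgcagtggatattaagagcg
It measured 49.99 ± 5.50 on the C array and 89.2 ± 9.16 on the RS array, a 1.91-fold difference of 0.93 ± 0.22 on the log2 scale (interval 0.51 to 1.36). Both probes were thus higher on RS, 1 above and 1 below 2-fold, and they differed by 0.37 with an error of 0.30.

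Nfkbiz encodes I-kappaB zeta, another nuclear member of the family, which is induced by Toll-like and interleukin-1 receptor signals and is needed for a set of secondary response genes. Its single probe (chr11:45810786-45810845, plus strand) measured 45.3 ± 5.06 on the C array and 90.0 ± 9.23 on the RS array. The difference was 2.13-fold, 1.09 ± 0.22 on the log2 scale (interval 0.66 to 1.52), and the interval includes values under 2-fold. The signal was low, and without normalization between the arrays the difference was 0.99, just under 2-fold. With another background correction (normexp with an offset of 50) it was 0.56, so that the size of this difference, though not its direction, depended on the processing.

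Tnfaip3 encodes A20, a ubiquitin-editing enzyme that shuts down signaling upstream of the I-kappaB kinases. It measured 178 on C and 193 on RS, a log2 difference of 0.21 ± 0.21 (interval -0.19 to 0.62), not separated beyond the spot error. The files give no position for its probe.

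Birc3 encodes cIAP2, a ubiquitin ligase that sustains canonical signaling and, with its relative cIAP1, restrains the noncanonical kinase. It measured 1516 ± 152 on the C array and 1875 ± 188 on the RS array (chr8:4682606-4682665, minus strand), a 1.32-fold difference of 0.41 ± 0.20 on the log2 scale, with an interval that just clears 0 (0.0053 to 0.81). Its probe is printed because it holds a run of alternating A and G bases (in capitals), a feature that no other probe of these genes has and that several probes named below share.
Birc3 probe: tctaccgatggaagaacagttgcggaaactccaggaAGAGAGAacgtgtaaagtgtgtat

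Of the 9 genes, 5 (Bcl3, Nfkbiz, Nfkbia, Nfkb1 and Birc3) thus had an interval that lay above 0, and 4 (Rela, Tnfaip3, Nfkb2 and Relb) were not separated. The share of all screened genes with such an interval was not computed. A log2 difference as high as that of Birc3, the lowest of the 5, or higher was found in 13.0% of all screened genes. Without normalization between arrays, Nfkb1 (0.37), Nfkbia (0.37) and Birc3 (0.31) were below the half-width of their intervals, 0.40. Birc3 was also below it with the 75th percentile over spots (0.35), with normexp (0.38) and with quantile normalization of the arrays (0.39). The same held for Birc3 where the percentile came only from probes that both arrays marked as above background (0.38). Nfkb1 was also below it with normexp (0.39). The dimmer Nfkb1 probe had an interval that included 0 (-0.18 to 0.65). In order of the log2 difference, the neighbors Bcl3 and Nfkbiz differed by less than the spot error, as did Nfkbia, Nfkb1 and Birc3. Among screened genes at least as bright as Nfkbiz, the 5th and 95th percentiles of the log2 difference were -0.57 and 0.60. Bcl3 and Nfkbiz lay above this range and the other 7 genes inside it.

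**Figure D3:**
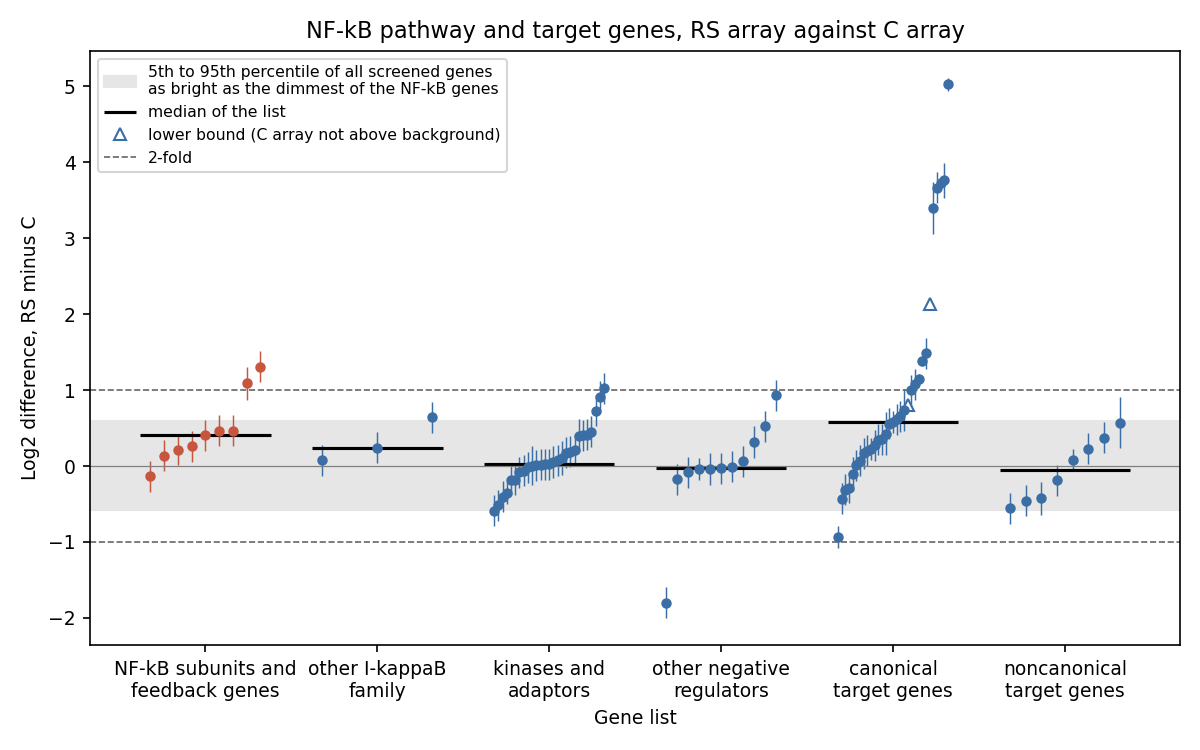
Log2 difference between the RS and C arrays for every screened gene of the NF-kB subunits and feedback genes (red) and of 5 other pathway lists (blue), with bars for the spot error, black lines for list medians, open triangles for lower bounds, dashed lines at 2-fold, and a gray band from the 5th to the 95th percentile (-0.57 to 0.60) of screened genes as bright as the dimmest of the NF-kB genes. The canonical targets reach 5.03, while the kinases and adaptors center on 0.025.

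The 3 other I-kappaB genes were all measured, and none was past 2-fold. Nfkbid, which encodes a further nuclear I-kappaB protein, measured 1646 on the C array and 2395 on the RS array with its brightest probe, a log2 difference of 0.64 ± 0.20. A second probe, well above background on both arrays, gave 0.27, and the third was at background. Nfkbib, for I-kappaB beta, gave 0.24 ± 0.20 and Nfkbie, for I-kappaB epsilon, 0.076 ± 0.20.

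Of 29 kinases and adaptors upstream of NF-kB, 27 were screened. Only Map3k8 was past 2-fold, and barely, at 897 on the C array and 1703 on the RS array, a log2 difference of 1.02 ± 0.20. It was under 2-fold without normalization between arrays (0.92), with normexp (0.92) and with the 75th percentile taken over spots (0.97). It encodes TPL2, a kinase that is held inactive by p105, the product of Nfkb1. The list had 18 genes above 0 and 9 below, with a median of 0.025 and a lowest value of -0.59 for Map3k14, the kinase NIK of the noncanonical pathway. The catalytic and scaffold subunits of the I-kappaB kinase complex (Chuk, Ikbkb and Ikbkg) had differences of 0.19, 0.025 and -0.014, each within the spot error.

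Of 13 other negative regulators, 11 were screened, since Tnip3 and Rnf11 had no probe under these names, and 4 were above 0 and 7 below, with a median of -0.030. None was higher by 2-fold and only Cyld, a deubiquitinase that opposes NF-kB activation, was lower. Its brightest probe measured 8111 on the C array and 2173 on the RS array, a log2 difference of -1.80 ± 0.20. That probe holds a run of at least 6 alternating A and G bases, and the other 3 probes of Cyld gave -0.31, 0.06 and -0.08, so that the difference was seen with 1 of its 4 probes. Among all genes, leaving out probes with such runs changed the share lower by 2-fold or more from 4.28% to 2.46%, and the share higher from 3.46% to 3.54%. Zc3h12a, for the ribonuclease regnase-1, measured 98.4 on the C array and 175 on the RS array, a log2 difference of 0.93 ± 0.21, and its second probe gave 0.68.

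Among the pathway lists, canonical target genes had the highest median and the highest single values. The lists were chosen with earlier results of these data known. Of the 33 canonical targets listed, 31 were screened, since neither array had Nos2 or Selp well above background. Of these, 10 were higher by 2-fold or more and none lower, although 1 was lower without normalization between arrays. Of all screened genes, 3.46% were higher by 2-fold or more. With both arrays required to be well above background, 9 targets were higher by 2-fold or more. In the list, 26 genes were above 0 and 5 below, and the median was 0.58. Cxcl1, a neutrophil-attracting chemokine, measured 20.5 on the C array and 624 on the RS array, a log2 difference of 5.03 ± 0.086. Cxcl2, its close relative, measured 27.2 and 345, a difference of 3.76 ± 0.23. Ccl2, which attracts monocytes, measured 1160 and 14380, a difference of 3.73 ± 0.068, with a probe that holds an alternating A and G run. Ptgs2, the inducible cyclooxygenase, measured 14.6 and 173, a difference of 3.67 ± 0.21, and its second probe, at background on C, gave a lower bound of 0.95. The cytokine Il6 measured 9.99 and 98.6, a difference of 3.40 ± 0.35. Plau, for the protease urokinase, did not stand well above background on C and measured 38.6 on RS, which gave a lower bound of 4.38-fold with these settings. The lower bound for Plau was under 2-fold with normexp (0.66) and as a mean over its probes (0.79). Without the bound, the plain difference of the signals was 3.24. The second Plau probe was at background on both arrays, with a plain difference of 1.60. The other 4 genes past 2-fold were named after their values were seen. They were Ccl20 at 1.48, Il1rn at 1.38, Ier3 at 1.15 and Cd83 at 1.08, and Il1b was just short of 2-fold at 0.998. Ier3 was under 2-fold with normexp (0.97), and Cd83 was under it without normalization between arrays (0.98). Several classic targets stayed under 2-fold, among them the adhesion molecules Vcam1 at 0.27 and Icam1 at 0.65. The cytokine Tnf was 0.071, with a probe that holds an alternating A and G run, and its second probe was at background on both arrays. The chemokine Ccl5 was the lowest at -0.94.

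The 8 noncanonical target genes, which shape lymphoid tissue, were all screened and none was past 2-fold in either direction. There were 4 above 0 and 4 below, and the median was -0.057. The chemokine Ccl19 measured 13918 on the C array and 8832 on the RS array, a log2 difference of -0.56 ± 0.20 with a probe that holds an alternating A and G run, and Cxcl13, the B cell chemokine, gave 0.37 ± 0.20. Lists made of a few genes each are given as counts and medians, and were not tested against other genes.

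RNA of the whole node was measured, so that fewer cells of a type and less RNA per cell cannot be told apart. The tissue label was checked against 7 lymph node markers, all of which were screened and none of which was past 2-fold, and the brightest were Ptprc at 10274 on the C array and 9513 on the RS array, and Ccl21 at 9330 and 7655. B cell markers had a median log2 difference of -0.049 (range -0.27 to 0.13), with 0 of 7 past 2-fold, and Cd79b differed by -0.049. T cell markers had a median of -0.16, with 0 of 8 past 2-fold. Cd3g and Cd3d differed by -0.14 and -0.15, while Cd5 was -0.97, Lck -0.58 and Cd8a -0.52. Macrophage markers had a median of 0.016 (range -0.34 to 0.45), with 0 of 9 past 2-fold, and C1qb and C1qa differed by 0.016 and -0.0022. The summed intensities, which the brightest probes of a list dominate, were 16737 on C and 15814 on RS for B cells. They were 31515 and 26367 for T cells, and 25979 and 24055 for macrophages. These sums, and those given below, are not normalized between arrays. After normalization, the ratios of RS to C were 1.01 for B cells, 0.90 for T cells and 0.99 for macrophages. The part of these cell types in the differences of the NF-kB genes was not tested.

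Among the markers of other cell types, the erythrocyte and fat cell lists differed most between the arrays. Neutrophil markers had a median of 0.42, with 2 of 6 past 2-fold, S100a9 at 3.78 and S100a8 at 3.99. Of the other 4, Csf3r was 0.11, Mmp8 -0.41 and Fcgr3a -0.83. Cxcr2 was 0.73 ± 0.43, and 0.53 with its second probe, neither probe being well above background on C. The sum, 197 on C and 850 on RS, thus rested on the S100 genes, while neither array had Mpo or Ngp well above background. Erythrocyte markers had a median of 2.60 and summed to 10236 and 57588, with 7 of 7 past 2-fold, among them Hba1 at 2.60 and Hbb-b1 at 2.55, and neither array had Epb42 or Slc4a1 well above background. Fat cell markers had a median of 2.19, with 7 of 8 past 2-fold, from Cfd at 1.08 over Retn at 2.58 and Adipoq at 2.74 to Lep at 3.24. They summed to 6939 and 18585, mostly from the bright Cfd probe, and neither array had Plin1 well above background. Endothelial markers had a median of 0.093 (range -0.41 to 1.17) and summed to 5626 and 5955, with 5 above 0 and 3 below. The brightest, Pecam1 and Kdr, differed by 0.0048 and 0.18. With 1 of 8 past 2-fold, Emcn was the highest at 1.17, from a dim probe (20.6 on C and 43.2 on RS). Cdh5 was the lowest at -0.41. The part of neutrophils, blood and fat in the differences of Bcl3, Nfkbiz and the target genes was not tested.

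Each of the 9 genes kept its direction under every alternative way of processing that gave it a value, and the value of Relb stayed below 0. Part of this was fixed in advance. For a gene with a single probe above background on both arrays, alternatives that change only the probe choice, the background filter or the lower bound cannot change its value. Most of the others shift all genes of an array alike. Birc3 had no value where probes with alternating A and G runs were left out.

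**Figure D4:**
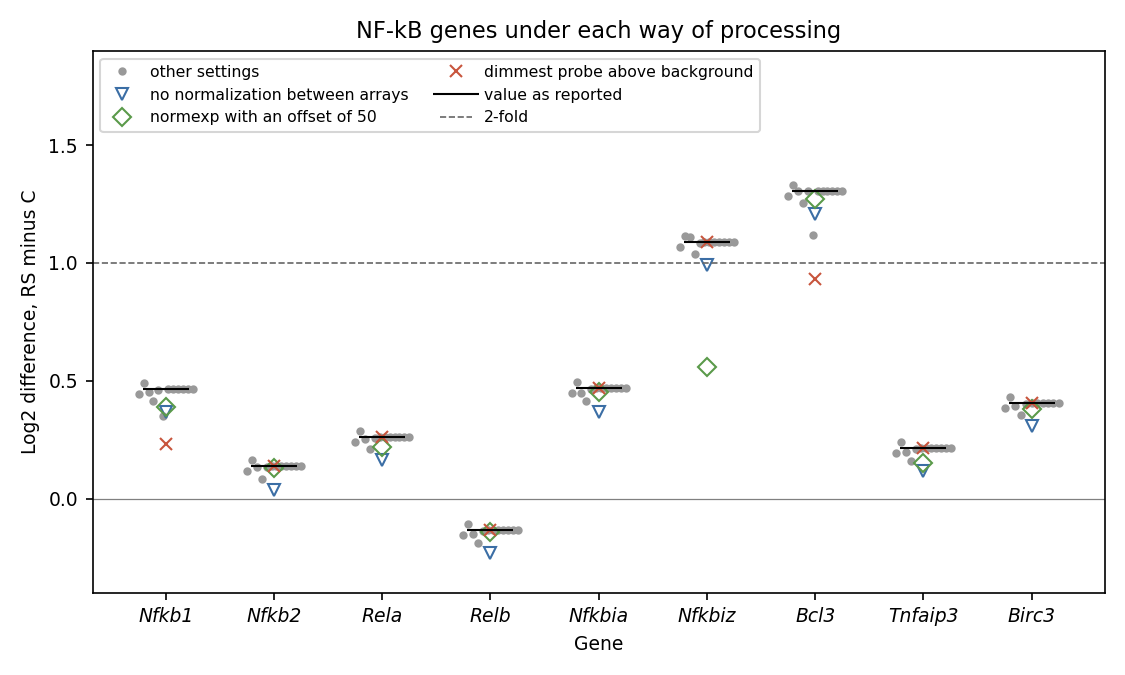
Log2 difference between the RS and C arrays of the 9 NF-kB genes as reported (black bars) and under each alternative way of processing (points), with 3 alternatives marked by their own symbols and the dashed line at 2-fold. Bcl3 stayed between 0.93 and 1.33 and Nfkbiz between 0.56 and 1.12, and the other 7 genes stayed below 2-fold throughout.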

How the data were processed

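Cervical lymph node RNA of the C and RS groups was measured on 1 Agilent SurePrint G3 rat array each (60-base probes, Cy3). Spots were quantified by the authors with Feature Extraction 11.5.1.1, per the submitters' processing notes, and the intensity values were deposited background-subtracted and not normalized between arrays. A deposited table of log2 values has no stated scale. On each array, 100.0% of its 45598 probes lay within 0.1 of the log2 intensity after the 75th percentile shift described next (column medians -3.523 for C and -3.551 for RS). The 2 arrays shared 1 slide and 1 scan. The other deposited columns used, such as spot flags, gene names and positions, hold no unit.

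Control and outlier spots (489 on C and 660 on RS, of 58717 spots other than controls) were left out. The remaining spots of each probe were averaged as log2 intensities, and each array was shifted by its 75th percentile over probes, as the authors did. A gene is its brightest probe. Screened genes are those whose probe stood well above background, in more than 50% of its spots, on either array. With 1 array so marked, the fold is a lower bound against the probe's own signal or the lowest signal marked well above background, whichever was higher. The threshold of 2-fold is that of the study. The number of arrays limits the precision, and no p-value was computed.

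The genes and lists were chosen with earlier results of these data known. Every NF-kB gene is named, as are, of each pathway list, the genes past 2-fold (the 6 largest where more than 6 were) and the 2 brightest of each marker list, except that some genes the rule selects are not reported here. Further genes are named for their known roles or after their values were seen. Apart from the settings used, 16 alternatives were run, 1 of them chosen after seeing the data. The steps were tested on simulated data. Promoter windows and their symbols came from RefSeq (GRCr8), and probe positions from the files, whose header names rn4; the builds were not mixed. Python 3.11.15 (numpy 2.4.6, pandas 2.3.3, matplotlib 3.10.9) and R 4.3.3 (limma 3.58.1, for normexp) were used.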

Additional observations from a re-analysis of the deposited data

How the results depend on the processing

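The median log2 difference of the NF-kB genes lay between 0.26 and 0.44 under the 15 alternatives run for it, and no gene of the 9 was lower by 2-fold under any of 16 alternatives. The number higher by 2-fold or more stayed at 2 under 13 alternatives, several of which could not change a gene with a single probe. It was 1 without normalization between arrays (Bcl3), 1 with normexp and an offset of 50 (Bcl3) and 1 with the dimmest probe above background of each gene (Nfkbiz), where Bcl3 was 0.93. Leaving out probes with alternating A and G runs removed Birc3, and the median of the other 8 genes was 0.36. Map3k8 fell under 2-fold without normalization, with the 75th percentile over spots and with normexp, in a range of 0.92 to 1.05. With the dimmest probe of each gene, the kinases and adaptors past 2-fold numbered 2, with Tab2. That Tab2 probe measured 23.2 on RS and was not well above background on C, and the brightest Tab2 probe gave 0.020. Cyld turned to 0.056 with its dimmest probe and was -0.53 as a mean over its probes and -0.082 without A and G run probes. Target genes higher by 2-fold numbered 8 to 11, and 1 was lower without normalization. With normexp Cxcl1 was 3.12 and Il6 1.34, while Ier3 (0.97) and the lower bound for Plau (0.66) were under 2-fold. Cd83 was under 2-fold without normalization (0.98). With its dimmest probe, at background on C, Ptgs2 had a lower bound of 0.95, while the plain difference of that probe was 3.27. As a mean over its probes, Plau had a lower bound of 0.79. Except where the alternative itself changes the probe, the cause was not tested. No paired analysis was possible because a group consists of 1 array, and for the same reason no array could be left out in turn.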
